A study of Rattus norvegicus with 54 samples.

Results

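The data described here were 6 of the 54 arrays of a study of neural progenitor cell (NPC) cultures from rats, and they made up 2 of its 18 groups of 3. Members were chosen by title: all arrays labelled as differentiated NPC cultures from the cervical spinal cord, of which 3 came from rats with experimental autoimmune encephalomyelitis (EAE) and 3 from naive rats. All 6 cultures came from the Dark Agouti strain and were collected after a second passage followed by 5 days of differentiation. Other arrays of the study covered thoracic and caudal cord, the subventricular zone and undifferentiated cultures. The 2 groups therefore shared strain, cord level, passage and stage, and differed by label only in the disease of the donor rats. The labels used here give no age, no sex, no way of inducing EAE and no time after induction. Whether the 3 replicates of a group were separate animals, pools or dishes is not stated, so the p-values given here cover only the spread among the arrays, which may be technical.

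EAE is an autoimmune inflammation of brain and cord, induced by immunization and used to model multiple sclerosis. In diseased cord, resident microglia and infiltrating macrophages become activated, take up myelin debris, and produce complement, proteases and chemokines. Cultured NPCs are multipotent precursors that give rise to oligodendrocytes, astrocytes and neurons once growth factors are withdrawn, and microglia come from a separate, myeloid lineage. The comparison asks how gene expression in such cultures differed when the donor rat had EAE.

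Markers of several neural cell types were measured in both groups. The signal of Mag, the myelin-associated glycoprotein, was 8155, 8365 and 8287 on the EAE arrays and 5727, 8899 and 9289 on the naive arrays. Signals are on the authors' linear scale, in arbitrary units, and levels are compared here only within a gene. The neuronal tubulin Tubb3 lay between 535 and 780, the progenitor factor Sox2 between 888 and 1176 and the astrocyte filament Gfap between 145 and 611. Dcx, a marker of young neurons, lay between 26.7 and 57.5 and was too dim to be tested. The 6 arrays had a median signal of 72.3 to 91.2 over main probe sets and of 24.9 to 34.9 over background controls, and 59.1% to 67% of the former were brighter than 50. Precision is limited by the number of arrays.

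Naive replicate 1 stood apart from the other naive arrays. Its correlation with them across probe sets was 0.929 and 0.939, against 0.991 between naive replicates 2 and 3 and 0.981 to 0.985 among the EAE arrays. Of 13933 probe sets compared, 338 were more than 2 log2 units higher on it than on the mean of the other naive arrays, and 5 were lower by that much. Among the former were Foxc1, a transcription factor of mesenchyme and meninges, with 20230 against 641 and 630, and the collagen cross-linking enzyme Lox, with 14011 against 708 and 728. The median SD of a probe set was 0.112 log2 units in the EAE group and 0.196 in the naive group, and it was 0.085 in the naive group without replicate 1. Values without this array are given beside the results it touches. For the gene lists they were added after seeing the data. Naive replicates 2 and 3 had lower median signals (74 and 72.3) than the EAE arrays (74.9 to 86.2). Counts of list genes above or below without naive replicate 1 have no share over all probe sets beside them, so they are not read as results.

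EAE cultures expressed a set of microglia and macrophage genes that lay at or near background in naive cultures. With limma on log2(signal + 16), a scale that understates the fold of dim genes, 23 of 17345 probe sets passed an adjusted p of 0.05 and a fold of 1.2, which is 0.133% of those tested. Of these, 22 were higher in EAE (0.127%) and 1 was lower (0.00577%). The 22 held 20 probe sets of 1 named gene each. The median log2 difference over all tested probe sets was -0.04, and 688 had an unadjusted p below 0.05. For all 20 named genes the highest naive signal was 54.2 and the lowest EAE signal was 66.4, so the groups did not overlap for any of them. Testing required a signal above 50 on 3 or more of the 6 arrays. Except for C1qb and Clec7a, no naive array was above 50 for these genes. For the others this limit fixed the separation in advance, so it is no separate result. The folds on this scale ran from 3.38 to 21.9. The count depended on the arrays and the test. It was 50 without naive replicate 1, 4 without naive replicate 2 and 0 without naive replicate 3, and the methods' test without shrinkage of the variance gave 0 calls after Benjamini-Hochberg adjustment, with 1018 unadjusted p-values below 0.05 on the same log2 scale. All 20 differences were positive in each of these settings. Leaving out an EAE array from the same set of tested probe sets, a setting added after seeing the data, gave 58, 4 and 10 calls without EAE replicates 1, 2 and 3.

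**Figure D1:**
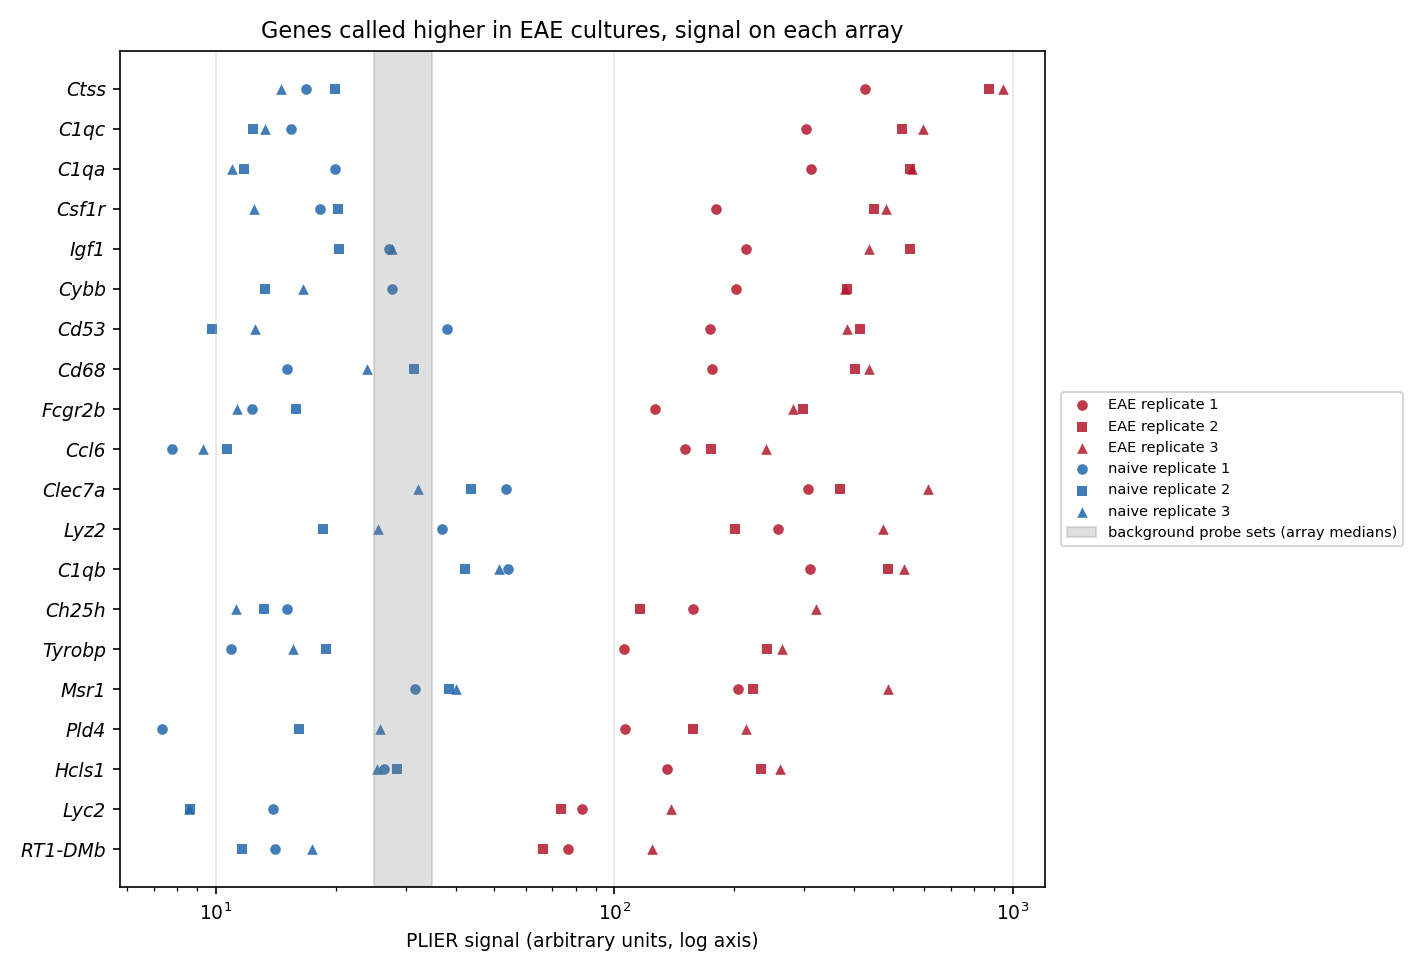
Signal of the 20 named genes called higher in EAE on each of the 6 arrays. The x axis is the PLIER signal in arbitrary units on a log axis, red marks are EAE arrays, blue marks are naive arrays, the mark shape gives the replicate, and the grey band spans the median of background probe sets on the 6 arrays (24.9 to 34.9). No EAE mark overlaps a naive mark for any gene, which the signal limit of 50 required for all but C1qb and Clec7a. EAE replicate 1 is the lowest of the EAE arrays for 16 of the 20 genes.

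The largest difference was that of Ctss, which encodes cathepsin S, a lysosomal protease of antigen-presenting cells. Its signal was 425, 873 and 943 on EAE replicates 1, 2 and 3 and 16.8, 19.9 and 14.6 on naive replicates 1, 2 and 3. All naive arrays were below their background level, and EAE replicate 1 was the lowest of the EAE arrays. The log2 difference was 4.45 ± 0.29 (standard error, n = 3 and 3, adjusted p = 0.00385). Where every naive array was at or below background, the fold is a lower bound, taken from signals without the added 16 against the background level, and for Ctss it was at least 23.7-fold.

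The 3 chains of C1q, the protein that starts the classical complement cascade, rose together. C1qa signals were 313, 551 and 560.4 in EAE and 19.9, 11.8 and 11 in naive cultures. C1qc signals were 302, 527 and 594 in EAE and 15.5, 12.4 and 13.3 in naive cultures. C1qb signals were 311, 486 and 533 in EAE and 54.2, 42.3 and 51.3 in naive cultures. For each chain the lowest EAE array was replicate 1, and it stood far above the highest naive array. The log2 differences were 3.99 ± 0.24 for C1qa and 3.99 ± 0.24 for C1qc (adjusted p = 0.00325 for both), with folds of at least 15.4 and 15.3, and 2.79 ± 0.20 for C1qb (adjusted p = 0.00786). In the RefSeq annotation of assembly GRCr8, C1qb (154402276 to 154407827), C1qc (154410845 to 154414208) and C1qa (154417086 to 154419933) are protein-coding neighbours on chromosome 5.

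Promoters are shown for 4 of the called genes: the cathepsin with the largest difference, the receptor that marks the myeloid lineage, and a pair of the neighbouring C1q genes that rose together. Each runs from 250 bases before to 50 bases after the start used for that gene, 5′ to 3′ on the gene's strand. For C1qb and C1qa this start is the outer end of the gene in RefSeq GRCr8. For Ctss and Csf1r the annotated gene begins earlier, at 185775316 and 56834152, inside the window. The Ctss motif and the second Csf1r motif therefore lie within the annotated gene, and the first Csf1r motif lies across the start of the annotated gene. Capitals mark GAGGAA, the central part of the site known to be bound by the myeloid transcription factor PU.1, or its reverse complement TTCCTC. The windows are chr2:185775146-185775445 (plus strand) for Ctss, chr18:56834129-56834428 (plus) for Csf1r, chr5:154407778-154408077 (minus) for C1qb and chr5:154419884-154420183 (minus) for C1qa.
Ctss: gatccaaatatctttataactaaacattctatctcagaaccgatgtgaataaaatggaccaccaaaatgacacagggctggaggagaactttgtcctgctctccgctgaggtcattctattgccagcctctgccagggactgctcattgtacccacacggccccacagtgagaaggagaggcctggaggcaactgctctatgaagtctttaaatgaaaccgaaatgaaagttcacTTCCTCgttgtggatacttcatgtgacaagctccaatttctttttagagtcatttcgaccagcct
Csf1r: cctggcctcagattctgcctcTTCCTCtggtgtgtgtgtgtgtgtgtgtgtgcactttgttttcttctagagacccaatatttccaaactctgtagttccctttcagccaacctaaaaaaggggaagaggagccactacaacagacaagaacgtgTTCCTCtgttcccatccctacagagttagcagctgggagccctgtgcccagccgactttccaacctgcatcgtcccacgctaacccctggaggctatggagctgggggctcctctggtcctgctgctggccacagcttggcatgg
C1qb: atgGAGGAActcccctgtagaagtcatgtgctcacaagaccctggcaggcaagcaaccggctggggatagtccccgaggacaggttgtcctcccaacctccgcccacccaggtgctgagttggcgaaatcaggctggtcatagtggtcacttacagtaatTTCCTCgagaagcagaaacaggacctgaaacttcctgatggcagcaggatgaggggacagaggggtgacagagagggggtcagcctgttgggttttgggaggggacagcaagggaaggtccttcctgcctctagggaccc
C1qa: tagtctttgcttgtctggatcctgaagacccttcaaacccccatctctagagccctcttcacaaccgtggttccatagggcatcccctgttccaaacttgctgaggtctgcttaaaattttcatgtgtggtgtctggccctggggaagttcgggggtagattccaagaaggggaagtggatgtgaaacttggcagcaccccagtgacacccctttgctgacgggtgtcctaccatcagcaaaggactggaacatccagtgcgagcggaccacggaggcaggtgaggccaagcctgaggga
The table held a promoter for 15 of the 20 called genes, with 1 window used per gene. For some others, such as Igf1, the start used also lay inside the annotated gene. The motif, searched on both strands, was in 7 of these 15 (C1qb, Cd53, Cd68, Csf1r, Ctss, Cybb and Lyz2), or 46.7%, and in 27.6% of all 33469 promoters of the table. C1qb and Csf1r held it 2 times each and C1qa did not hold these letters in this window. The AP-1 motif TGANTCA was in 3 of the 15 promoters and in 7.3% of all. TGANTCA is its own reverse complement and cannot overlap GAGGAA or TTCCTC.

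Receptors and adaptors of phagocytes formed the next group. Csf1r, the receptor for colony-stimulating factor 1 on which microglia and macrophages depend, had signals of 181, 448 and 482 in EAE and 18.2, 20.3 and 12.5 in naive cultures. Its log2 difference was 3.44 ± 0.34 (adjusted p = 0.0291), at least 11.4-fold, with EAE replicate 1 below the other EAE arrays. Tyrobp, the signalling adaptor of Trem2 and other myeloid receptors, had 106, 242 and 264 against 10.9, 18.9 and 15.6. Its log2 difference was 2.74 ± 0.31 (adjusted p = 0.0429), at least 6.34-fold. Both genes thus showed the same order of arrays, with EAE replicate 1 lowest of its group and every naive array at background. Fcgr2b, an inhibitory receptor for immunoglobulin G, had 127, 298 and 280.5 against 12.3, 15.9 and 11.3. Its log2 difference was 3.02 ± 0.29 (adjusted p = 0.0259), at least 7.37-fold.

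Clec7a encodes dectin-1, a receptor for fungal glucans that microglia also express in disease. Its signal was 307, 368 and 614 in EAE and 53.6, 43.6 and 32.3 in naive cultures, a log2 difference of 2.87 ± 0.26 (adjusted p = 0.0241). Msr1, a scavenger receptor for modified lipoproteins, had 204, 223 and 486 against 31.7, 38.4 and 40.1, a log2 difference of 2.50 ± 0.30 (adjusted p = 0.0487). Both were dim but above background on most naive arrays, and for both EAE replicate 3 stood clearly above EAE replicates 1 and 2. Cd53, a tetraspanin of leukocytes, had 174, 413 and 385 against 38.1, 9.79 and 12.5, with naive replicate 1 as the highest naive array. Its log2 difference was 3.23 ± 0.39 (adjusted p = 0.0485). Msr1, Ch25h, Pld4 and Lyc2 were outside the rule by which genes were named and were included after their values were seen, because they completed the called genes.

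Lysosomal and antimicrobial genes were also among those called. Cd68, a lysosomal glycoprotein of macrophages, had signals of 176, 401 and 436 in EAE and 15.1, 31.4 and 23.9 in naive cultures, with a log2 difference of 3.09 ± 0.34 (adjusted p = 0.0366). Cybb, the catalytic subunit of the phagocyte NADPH oxidase, had 203, 385 and 379 against 27.7, 13.3 and 16.6, a log2 difference of 3.23 ± 0.27 (adjusted p = 0.0145), at least 10.4-fold. In both, EAE replicates 2 and 3 lay close together and above replicate 1. Lysozyme 2 (Lyz2), which cleaves bacterial cell walls, had 258, 201 and 471 against 36.9, 18.6 and 25.6, a log2 difference of 2.86 ± 0.31 (adjusted p = 0.0359). Its near-identical relative Lyc2 had 83.2, 73.6 and 139 against 13.9, 8.62 and 8.58, a log2 difference of 2.08 ± 0.22 (adjusted p = 0.0306). The 2 lysozyme genes lie beside each other on chromosome 7 and had the same order of EAE arrays. Probes of such close relatives may share targets, so their values may not be separate measurements, and the same holds for the Fc receptor genes.

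The remaining called genes had signalling and metabolic roles. Igf1, insulin-like growth factor 1, was the only called member of the 13 IGF system genes on the array, against 0.127% called higher of all probe sets tested. Its signal was 214, 552 and 436 in EAE and 27.2, 20.4 and 27.7 in naive cultures. The log2 difference was 3.25 ± 0.31 (adjusted p = 0.0259), and no naive array came near an EAE array. Ccl6, a chemokine of rodent macrophages, had 150.4, 175 and 240.25 against 7.76, 10.7 and 9.28, a log2 difference of 3.00 ± 0.17 (adjusted p = 0.00325), at least 6.21-fold. Its standard error was the smallest among the 20 genes. Ch25h, which makes 25-hydroxycholesterol, had 158, 116 and 321 against 15.1, 13.2 and 11.3, a log2 difference of 2.77 ± 0.32 (adjusted p = 0.0432), at least 6.07-fold. Hcls1, a cortactin-like protein of blood cells, had a log2 difference of 2.36 ± 0.22 (adjusted p = 0.0259). Pld4, an endolysosomal nuclease, had one of 2.43 ± 0.28 (adjusted p = 0.0445). RT1-DMb, a chain of the chaperone that loads peptides on MHC class II, had the smallest difference of the 20 genes, 1.76 ± 0.21 (adjusted p = 0.0445), with signals of 76.7, 66.4 and 125 against 14.1, 11.6 and 17.5.

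Nearly all members of the microglia and macrophage list differed in one direction. Of its 26 members on the array, 24 were bright enough to be tested and 5 were called higher (Csf1r, Cd68, Tyrobp, Hcls1 and Cd53), against 0.127% of all probe sets tested. The difference was positive for 25 of 26 members, the exception being Cd163 at -0.08, and 21 members lay higher on every EAE array than on any naive array, against 5.06% of all main probe sets and 3.57% of those tested. The median difference over the 26 members was 2.55 log2 units, against -0.01 over all main probe sets. On EAE replicates 1, 2 and 3, 24, 25 and 25 members had a signal above 50, and on each naive array 4 had. The list's mean of log2(signal + 16) was 6.91, 7.80 and 8.08 on the EAE arrays and 5.49, 5.43 and 5.33 on the naive arrays. Many members could be tested only because they exceeded 50 on the EAE arrays. This list and the other gene lists were chosen with earlier results of these data known, so their counts are no independent support. In bulk cultures, fewer cells of a type and less RNA per cell cannot be told apart.

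Several defining genes of the lineage missed the threshold while their groups stood apart. Aif1, the calcium-binding protein used to stain microglia, had signals of 78.9, 205 and 291 in EAE and 4.4, 11.98 and 5.86 in naive cultures, a log2 difference of 3.00 ± 0.40 (adjusted p = 0.0704). Fcer1g, the common gamma chain of Fc receptors, had 251, 850 and 956 against 32.6, 42.1 and 38.6, a log2 difference of 3.50 ± 0.46 (adjusted p = 0.0663). For both, EAE replicate 1 was far below EAE replicates 2 and 3 and above all naive arrays. The integrin Itgam and the fractalkine receptor Cx3cr1 had log2 differences of 2.58 ± 0.36 and 2.38 ± 0.34 (adjusted p = 0.0777 for both). Adgre1, the F4/80 antigen, had 77.7, 388 and 535 against 17, 26.4 and 11.6, a log2 difference of 3.03 ± 0.61 (adjusted p = 0.308). The 5 members whose groups overlapped included Tmem119, a marker of resident microglia, with 153, 98.3 and 178 in EAE and 177, 60.3 and 69.1 in naive cultures. The others were the lipopolysaccharide co-receptor Cd14, the haemoglobin scavenger receptor Cd163, the myeloid transcription factor Spi1 (PU.1) and the actin bundling protein Lcp1. P2ry12, a purinergic receptor of resident microglia, was too dim to be tested, with 43.2, 88.5 and 102 against 15.8, 21.8 and 5.54, and its groups did not overlap.

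Lists of related functions held further called genes. All 13 measured Fc receptor and adaptor genes had positive differences, with a median of 0.91. Of the 13, 12 had EAE above with groups apart, against 5.06% of main probe sets, and 2 of the 8 tested were called higher, against 0.127%. All 10 complement genes were positive with a median of 1.77, and the 3 called were the C1q chains. C3, the central complement component, had 89.2, 356 and 524 in EAE and 25.2, 23.2 and 18.7 in naive cultures, a log2 difference of 2.85 ± 0.54 (adjusted p = 0.255), which did not pass. Its groups did not overlap, and EAE replicate 1 was the lowest of the EAE arrays. Of 14 cathepsin and lysosomal genes, 2 were called, and the general lysosomal genes Lamp1, Lamp2 and Ctsd had differences between -0.06 and 0.17 that did not pass.

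In other inflammatory lists many genes were too dim to be tested. Of 23 chemokine and receptor genes on the array 12 were tested and 1 was called, Ccl6, against 0.127% called higher of all probe sets tested. The list's median was 0.11. Ccl3, which attracts monocytes, had 127, 147 and 239 in EAE and 38.3, 36.2 and 24 in naive cultures, and its log2 difference of 1.90 ± 0.23 missed the threshold with an adjusted p of 0.0504. Of 18 cytokine genes 10 were tested and none was called, with a median of 0.08. In the MHC class II list 4 of 9 genes were tested and 1 was called, RT1-DMb, against the same 0.127%. The median of this list was 0.06. Cd74, the invariant chain of class II molecules, had signals between 21 and 31.9 on all 6 arrays, near background. None of 11 MHC class I and 23 interferon response genes was called, with medians of -0.13 and -0.11. The interferon list's mean was 6.40, 6.46 and 6.85 on the EAE arrays and 7.88, 6.15 and 6.21 on the naive arrays, so that naive replicate 1 alone stood high. Without that array, 22 of the 23 interferon response genes had positive differences, with a median of 0.40. Of these genes 9 lay higher on every EAE array than on both remaining naive arrays. The share over all probe sets is not given for this setting. Other lists were also mostly positive in it, with 22 of 23 chemokine genes (10 above) and 14 of 14 lymphocyte genes (9 above). Some were mostly negative, with 5 of 20 myelin genes positive.

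**Figure D2:**
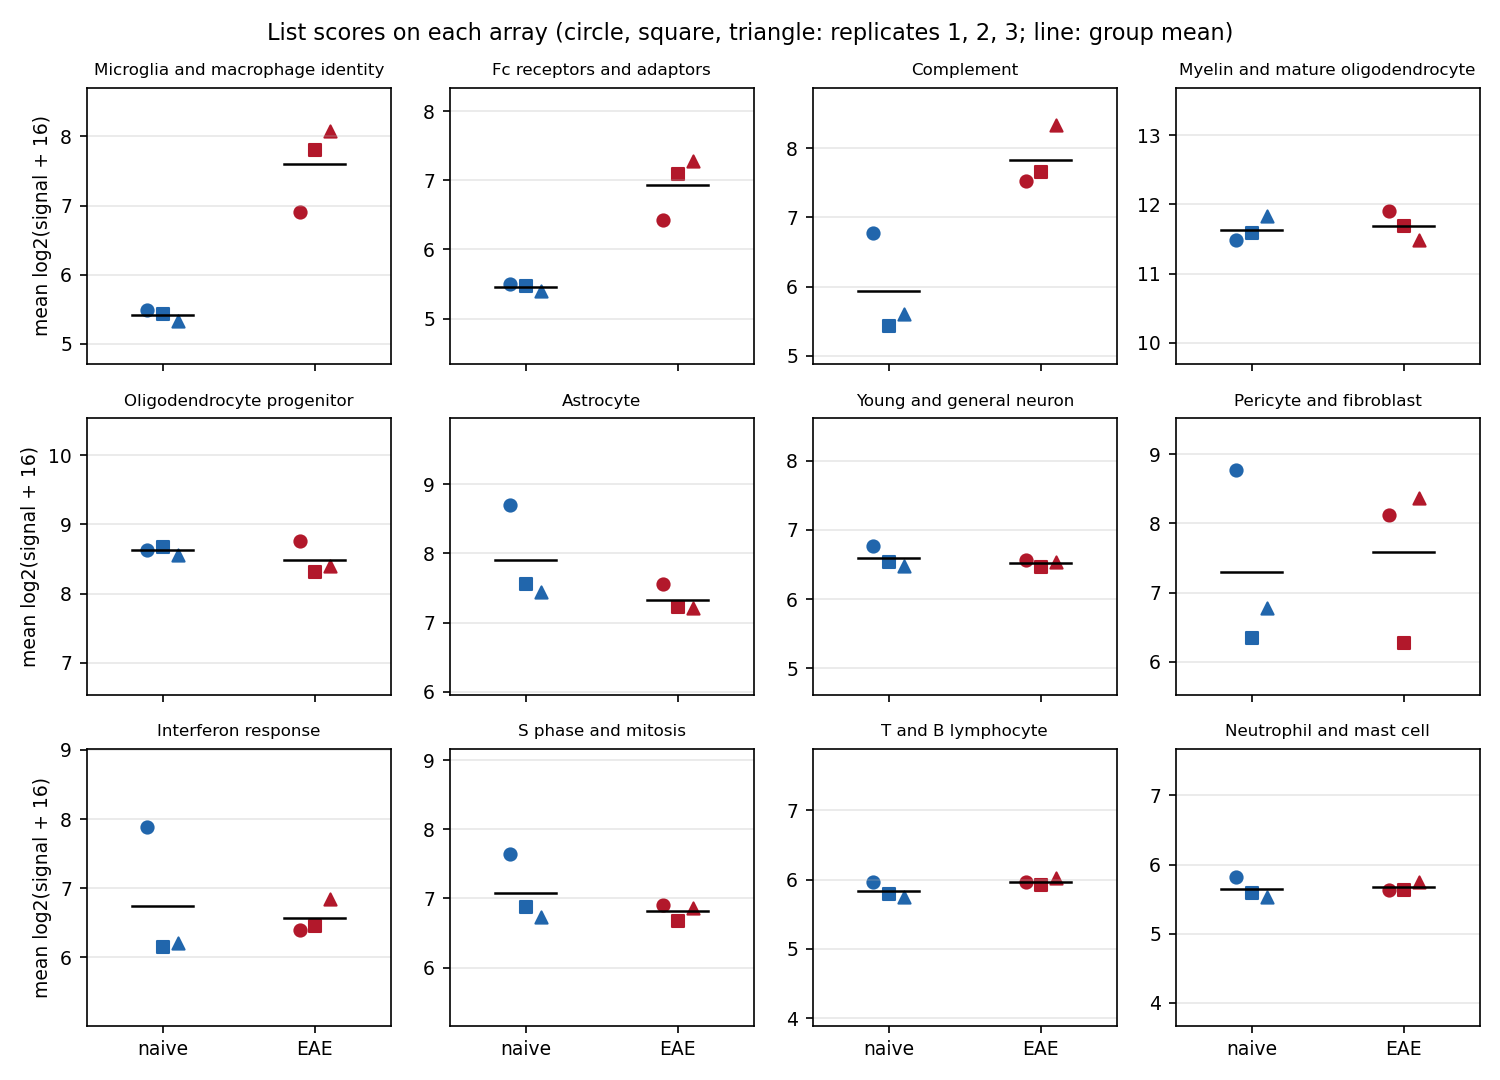
Mean of log2(signal + 16) over the genes of 12 lists on each array. Each panel spans the same range on its y axis, with naive arrays on the left in blue, EAE arrays on the right in red, circles, squares and triangles for replicates 1, 2 and 3, and a line at the group mean. The microglia and macrophage list lies at 6.91 to 8.08 on the EAE arrays and 5.33 to 5.49 on the naive arrays, while in the astrocyte, interferon and S phase panels naive replicate 1 lies above the other 5 arrays.

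Markers of other blood cells were mostly dim. Of 14 T and B lymphocyte genes on the array 4 were bright enough to be tested and none was called, with a median difference of 0.12. The difference was positive for 13 of the 14, and 2 lay above on every EAE array, against 5.06% of main probe sets. These were the T cell coreceptor Cd8a with 40.1, 32.8 and 35 against 27.2, 28 and 18.5 and the T cell kinase Zap70 with 74.7, 69.4 and 73.8 against 62.5, 51.8 and 55.2. The summed signal of the 14 genes was 677.2 to 762.2 on the EAE arrays and 594 to 721 on the naive arrays. Of 15 neutrophil and mast cell genes 5 were tested and none called. Of the 15, 10 were positive and 2 lay above on every EAE array (Csf3r and S100a9), against the same 5.06%. The summed signal of the 15 genes was 541 to 631 in EAE and 488 to 681 in naive cultures. For comparison, the summed signal of the 26 microglia and macrophage genes was 3412, 7027 and 8856 on the EAE arrays and 1281, 1263 and 1103 on the naive arrays. The sums overlapped between groups for both kinds of blood cell only through naive replicate 1. Naive replicates 2 and 3 had 596 and 594 for lymphocyte genes and 526 and 488 for neutrophil and mast cell genes. Without naive replicate 1, all 14 lymphocyte genes were positive and 9 lay above on every EAE array, with a median of 0.19. Of the 15 neutrophil and mast cell genes 10 were positive and 5 lay above. The share over all probe sets is not given for this setting. Of the defining lymphocyte genes, the T cell receptor subunit Cd3e lay between 77.3 and 94.8 on the 6 arrays. The B cell receptor subunit Cd79b lay between 99 and 146, and both overlapped between groups only through naive replicate 1.

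Fibroblast genes varied between arrays of the same group. The summed signal of 23 pericyte and fibroblast genes was 12881, 2007 and 16084 on the EAE arrays and 27585, 2542 and 3977 on the naive arrays. EAE replicates 1 and 3 and naive replicate 1 were thus high, and EAE replicate 2 was the lowest of the 6. Col1a1, a chain of type I collagen, had 1047, 150 and 1741 against 3571, 267 and 333, and all 23 genes overlapped between groups. Without naive replicate 1, all 23 differences were positive, with a median of 1.05. In that setting 4 of the genes lay above on every EAE array, and the share over all probe sets is not given. The part of fibroblast genes in the other results was not tested.

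No gene of 1 symbol was called lower in EAE, and the single probe set called lower matched no gene in the annotation used, with signals of 461, 376 and 566 in EAE and 1204, 1195 and 1157 in naive cultures (log2 difference -1.33 ± 0.15, adjusted p = 0.0445). The 12 named genes with the smallest p in that direction were picked only from genes with separate groups. Such groups, with EAE below, were found for 5.24% of all main probe sets and 6.75% of tested ones. The adjusted p of the 12 ran from 0.0552 to 0.258. With array weights, a fit that gives less weight to arrays that deviate, 9 of the 12 were called, and with a signal limit of 100 only Tnr was. Without naive replicate 1, 6 were called (Gfap, Bmp4, Tnr, Klk6, Ceacam4 and Pcdh20). The 12 included 3 of the 15 genes of the astrocyte list. Gfap, the astrocyte filament protein, had 145, 171 and 151 in EAE and 611, 399 and 322 in naive cultures, a log2 difference of -1.38 ± 0.22 (adjusted p = 0.123). Atp1b2, a glial subunit of the sodium pump, had 151, 149.7 and 103 against 397, 327 and 251, a log2 difference of -1.17 ± 0.20 (adjusted p = 0.164). Fgfr3, a growth factor receptor of astrocytes and their precursors, had 49.2, 71.7 and 64.1 against 118, 99.6 and 122, a log2 difference of -0.74 ± 0.14 (adjusted p = 0.258). In these 3 genes the EAE arrays lay below the naive arrays, as the choice of the 12 required. The SD in log2 units was 0.109 in EAE against 0.453 in naive cultures for Gfap, and 0.278 against 0.315 for Atp1b2. For Fgfr3 it was larger in EAE, at 0.219 against 0.139. Naive replicate 1 was the highest array for Gfap and Atp1b2.

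The astrocyte list depended on 1 array. Of 15 genes on the array 12 were tested, none was called, and 4 lay below on every EAE array, against 5.24% of main probe sets. The difference was negative for 10 of the 15 and positive for 5, with a median of -0.74, and without naive replicate 1 the median was -0.09. The highest positive value was that of Acsbg1, an enzyme that activates fatty acids, with 98.3, 162 and 170 in EAE and 126, 89.7 and 49.6 in naive cultures and overlapping groups. Aqp4, the water channel of astrocyte endfeet, had 110, 95.7 and 92.3 in EAE and 895, 191 and 104 in naive cultures, a log2 difference of -1.30 ± 0.66 (adjusted p = 1). The gap junction gene Gja1 had 290, 137 and 281 against 2406, 161 and 241. For both, naive replicate 1 was far above the other 5 arrays. Without naive replicate 1, Gfap was called (log2 difference -1.13 ± 0.12, adjusted p = 0.0368), while the difference of Gja1 turned to 0.17 and that of Aqp4 was -0.45 ± 0.22 (adjusted p = 0.261).

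**Figure D3:**
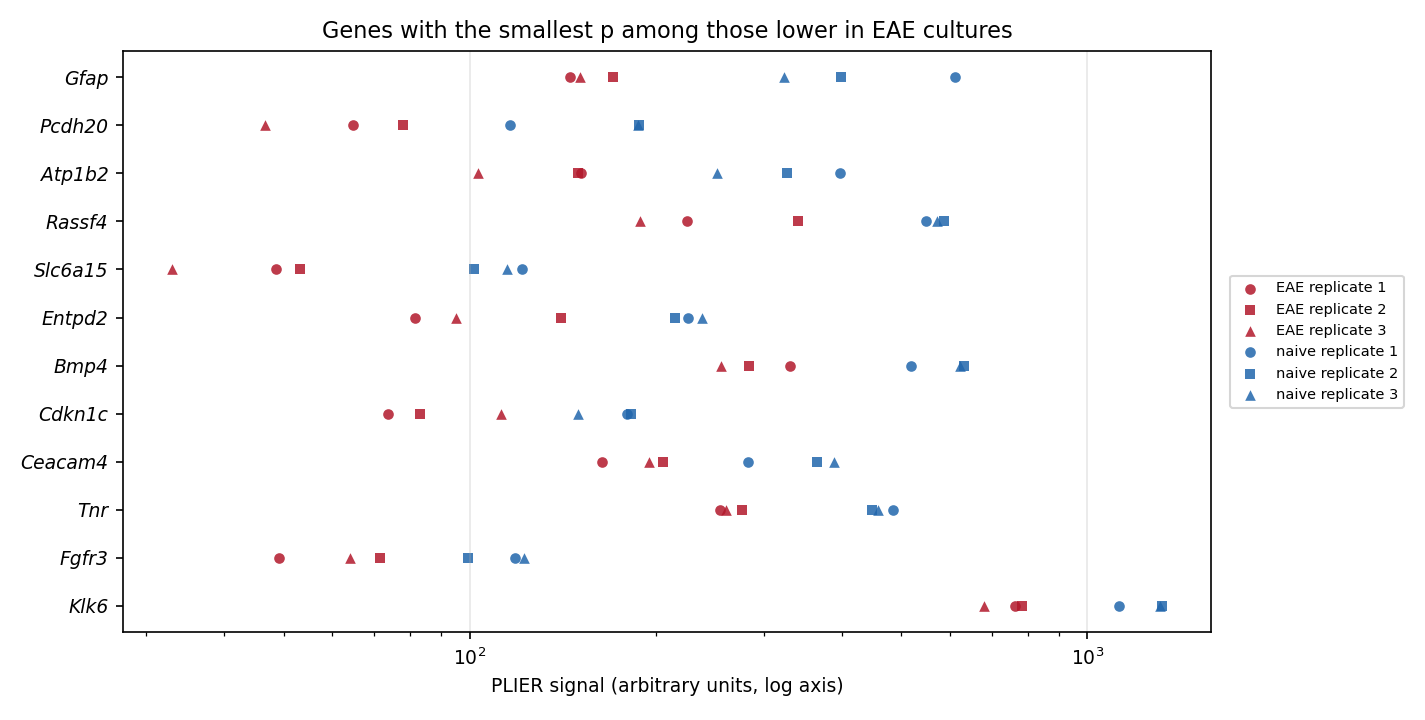
Signal of the 12 genes with the smallest p among those lower in EAE, on each of the 6 arrays. The x axis is the PLIER signal in arbitrary units on a log axis, red marks are EAE arrays, blue marks are naive arrays and the mark shape gives the replicate. Every EAE mark lies left of every naive mark of its gene, because the 12 were picked only from genes with separate groups. None of the 12 was called in the fit with all 6 arrays weighted equally and a signal limit of 50.

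The bone morphogenetic protein (BMP) pathway steers precursors toward astrocytes, and its genes differed in direction. Of 22 genes in the list 15 had negative and 7 positive differences, with a median of -0.18, or -0.07 without naive replicate 1. None of the 13 tested was called and 7 lay below on every EAE array, against 5.24% of main probe sets. The highest positive difference was 0.51, for the BMP and activin inhibitor follistatin (Fst), whose groups overlapped. Bmp4, its ligand, had 330.03, 283 and 255 in EAE and 518, 631 and 623 in naive cultures, a log2 difference of -0.99 ± 0.14 (adjusted p = 0.0777). The arrays of each group were close together and naive replicate 1 was the lowest naive array, and without it the gene was called at -1.08 ± 0.12 (adjusted p = 0.0392). Id1, a target of the pathway that blocks differentiation factors, had 22.8, 29.8 and 23.5 against 141, 53.8 and 56.2, a log2 difference of -1.16 ± 0.31 (adjusted p = 0.724). Id2 had 119, 114 and 90.25 against 382, 168 and 159, a log2 difference of -0.92 ± 0.31 (adjusted p = 1). For both Id genes every EAE array lay below every naive array, with naive replicate 1 highest. Without naive replicate 1, in the probe sets of the full fit, the difference of Id1 was -0.78 ± 0.11 (adjusted p = 0.0628). That of Id2 was -0.54 ± 0.12 (adjusted p = 0.142).

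The other genes of this set had varied roles. Tnr, tenascin-R of perineuronal nets and oligodendrocytes, had 255, 276 and 260 in EAE and 484, 449 and 458 in naive cultures, a log2 difference of -0.78 ± 0.10 that missed the threshold with an adjusted p of 0.0552 and was called without naive replicate 1 (-0.75 ± 0.09, adjusted p = 0.0413). Klk6, a protease of oligodendrocytes, had 763, 783 and 679 against 1123, 1320 and 1311, a log2 difference of -0.74 ± 0.12 (adjusted p = 0.116), and it was called without naive replicate 1 (-0.82 ± 0.10, adjusted p = 0.0427). Slc6a15, a transporter of neutral amino acids, had 48.6, 53.2 and 33 against 122, 102 and 115, a log2 difference of -1.09 ± 0.15 (adjusted p = 0.0777). Within each group the 3 arrays of Tnr and of Klk6 differed by less than the gap between the groups. Cdkn1c, an inhibitor of the cell cycle, had 73.7, 83.2 and 112 against 180.03, 183 and 149.9, a log2 difference of -0.83 ± 0.16 (adjusted p = 0.258). Rassf4, Entpd2, Ceacam4 and Pcdh20 completed the 12, with log2 differences of -1.17 ± 0.20, -1.02 ± 0.18, -0.82 ± 0.15 and -1.18 ± 0.22. Without naive replicate 1 the last 2, Ceacam4 and Pcdh20, were called at -0.95 ± 0.11 and -1.38 ± 0.17 (adjusted p = 0.0427 for both).

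Genes of the oligodendrocyte lineage did not separate the groups when all 6 arrays were used. All 20 myelin genes on the array overlapped between groups, with differences between -0.16 and 0.31 and a median of 0.04, and none was called. Mbp, myelin basic protein, had 9630, 8626 and 8186 in EAE and 7272, 9179 and 9421 in naive cultures, with EAE replicate 1 highest and naive replicate 1 lowest of the 6 arrays. All 17 progenitor genes also overlapped, with a median of -0.08. Without naive replicate 1, 15 of the 20 myelin genes were negative, with a median of -0.13, and 5 lay below on every EAE array. Of the 17 progenitor genes 10 were then negative, with a median of -0.12, and 5 lay below. The share over all probe sets is not given for this setting. Olig2, the lineage factor, had 769, 941 and 1017 against 560.2, 1133 and 1146. The difference of Mbp was 0.04 ± 0.14 and that of Olig2 was 0.00 ± 0.28, and their signs depended on the arrays included. None of 26 neuronal genes, with a median of -0.04, and none of 16 stem and progenitor genes, with a median of -0.20, was called.

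Cell cycle genes separated naive replicate 1 from the other arrays. Of 33 S phase and mitosis genes on the array 31 had negative differences, with a median of -0.28, but none of the 28 tested was called and 3 lay below on every EAE array, against 5.24% of main probe sets. Without naive replicate 1, 17 were negative and 16 positive and the median was 0.00. Mcm7, a subunit of the replicative helicase, had 183, 183 and 187 in EAE and 318, 243 and 233 in naive cultures, a log2 difference of -0.47 ± 0.14 (adjusted p = 0.919). Naive replicate 1 was the highest array for Mcm7, and the list's mean was 7.64 on that array against 6.73 and 6.88 on the other naive arrays and 6.68 to 6.91 on the EAE arrays. Among 17 genes of G1 progression none was called, 5 lay below on every EAE array, against the same 5.24%, and the median was -0.27, or -0.14 without naive replicate 1. Cdk4, a G1 kinase, had 1073, 1074 and 1186 against 1338, 1506 and 1395, a log2 difference of -0.34 ± 0.11 (adjusted p = 1).

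Of the 38 gene lists examined, 7 held a called gene and 31 held none, and the medians of the latter ran from -0.74 to 0.12. Among the genes with groups apart in these lists was Pfkfb4, a regulator of glycolysis, with 768, 672 and 921 in EAE and 417, 515 and 508 in naive cultures (0.69 ± 0.15, adjusted p = 0.387). Ldha, which makes lactate, went the other way with 775, 1068 and 1252 against 1639, 1546 and 1583 (-0.64 ± 0.18, adjusted p = 0.812). Pmp22, a myelin protein of peripheral nerve, had 380.3, 263 and 249.8 against 584, 672 and 469.5 (-0.92 ± 0.20, adjusted p = 0.351). None of the 3 passed the test although their groups did not overlap. The list for cholesterol synthesis, with 27 genes and a median of 0.06, held no gene with groups apart when all arrays were used. The same held for the integrated stress response, with 22 genes and a median of -0.01. Without naive replicate 1, 25 of the 27 cholesterol genes were negative, with a median of -0.15, and 10 lay below on every EAE array. Of the 22 stress response genes 11 were then positive and 11 negative, with a median of 0.02. Among these, 3 lay above and 3 below on every EAE array. For this setting the share over all probe sets is not given.

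Leaving out naive replicate 1, a setting that cost 1 of 3 naive arrays, gave 50 called probe sets, 39 higher and 11 lower. They named 35 genes higher and 10 lower, and included 19 of the 20 genes called with all arrays. Among the 26 others was Apoe, the lipid carrier, with 1859, 4069 and 2532 in EAE and 603, 459 and 305 in naive cultures, a log2 difference of 2.78 ± 0.32 (adjusted p = 0.0427), and 0.0658 with all arrays. Gpnmb, a glycoprotein of lipid-laden phagocytes, had 1468, 1935 and 2236 against 1214, 453 and 612, a log2 difference of 1.78 ± 0.20 (adjusted p = 0.0397). Ctsh, a lysosomal cathepsin, had 496, 342 and 502 against 539, 82.1 and 108, a log2 difference of 2.05 ± 0.19 (adjusted p = 0.0242). Naive replicate 1 was near or above EAE levels for Gpnmb and Ctsh and below them for Apoe. The largest difference among the genes called lower was that of Dct, an enzyme of melanin synthesis, with 101, 127 and 108 in EAE and 95.1, 694 and 458 in naive cultures (-2.18 ± 0.18, adjusted p = 0.0159). For Dct naive replicate 1 was the lowest of the 6 arrays, so that this call rests on naive replicates 2 and 3.

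The genes called in differentiated cervical cultures were also higher with EAE in the 3 most similar kinds of culture, which shared no arrays with them. Whether they shared animals is not stated. Same-numbered EAE arrays of differentiated cervical and caudal cultures correlated at 0.39, 0.324 and 0.586 in their deviations from the group means, against at most 0.142 for other numbers, and whether this reflects shared animals was not tested. In undifferentiated cervical cultures all 20 had positive differences, with a median of 2.33, and 18 had separate groups, against 6.01% of main probe sets with EAE above. None passed the adjusted threshold there (limma, 0% of 17302 called, 1865 with an unadjusted p below 0.05). In differentiated thoracic cultures all 20 were positive with a median of 3.04 and 19 had separate groups, against 9.35%, again with 0% of 17084 probe sets called and 1044 at an unadjusted p below 0.05. In differentiated caudal cultures all 20 were positive with a median of 1.95, 9 had separate groups, against 1.54%, and 13 were called. Of 16522 probe sets tested there 0.89% were called, 0.333% with EAE higher and 0.557% with EAE lower. Naive replicate 3 of the caudal cultures was high for several of these genes, with a Ctss signal of 417 against 18.6 and 13.6 on the other naive arrays and 403 to 869 on the EAE arrays, and a C1qa signal of 275 against 18.7 and 9.11. The part of that array in the caudal values was not tested. In undifferentiated cervical cultures naive replicate 3 had a Cd53 signal of 1759, above the EAE arrays (203 to 527), and the log2 difference was 1.34 ± 1.52. In differentiated thoracic cultures naive replicate 3 had an Igf1 signal of 655, above the EAE arrays (207 to 459), and the log2 difference was 1.56 ± 1.09. Over all main probe sets, 40.6%, 62.9% and 35% of differences were positive in the 3 cultures. Ctss had log2 differences of 3.32 ± 0.51, 3.99 ± 0.46 and 3.01 ± 0.61 in undifferentiated cervical, differentiated thoracic and differentiated caudal cultures.

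The 12 lower genes did not keep their direction in all of them. In differentiated thoracic cultures 11 of 12 were negative with a median of -1.35 and 6 had separate groups, against 9.24% of main probe sets with EAE below. In differentiated caudal cultures 10 of 12 were negative with a median of -0.29, 5 had separate groups, against 7.89%, and 1 was called. In undifferentiated cervical cultures 9 of 12 were positive, with a median of 0.84. There 5 had separate groups with EAE above, against 6.01% of main probe sets, and 1 with EAE below, against 22.1%. Bmp4 had log2 differences of 1.72 ± 1.16, -1.68 ± 0.27 and -0.25 ± 0.25 in undifferentiated cervical, differentiated thoracic and differentiated caudal cultures. The first rested on naive replicate 3 of the undifferentiated cultures, at 29.6 where the other naive arrays were at 1050 and 782 and the EAE arrays between 987 and 1167. Gfap had 0.85 ± 0.60, -1.48 ± 1.16 and -1.43 ± 0.37 in the same order. In thoracic cultures naive replicate 3 had a Gfap signal of 18.4, below all EAE arrays, and the other naive arrays had 1141 and 408.

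**Figure D4:**
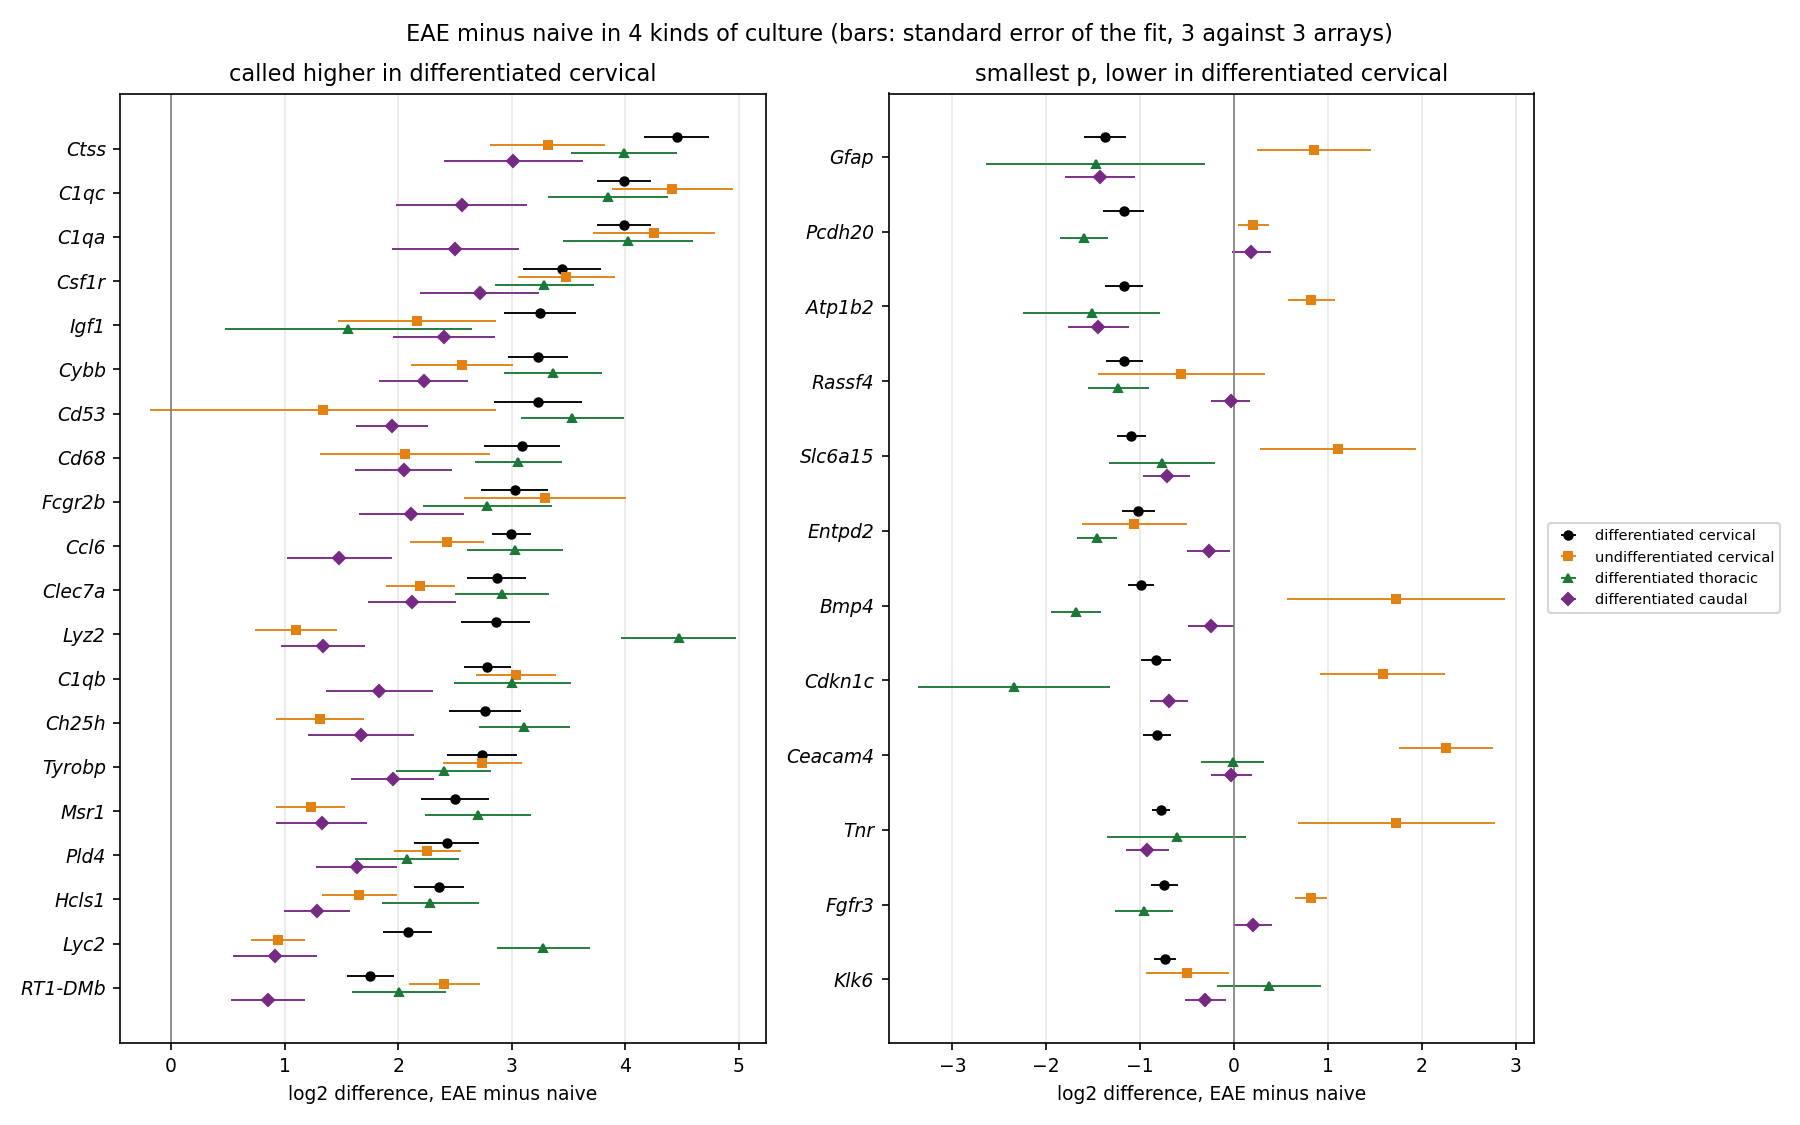
Log2 difference, EAE minus naive, of the 20 called genes (left) and of the 12 genes with the smallest p in the lower direction (right) in differentiated cervical, undifferentiated cervical, differentiated thoracic and differentiated caudal cultures. Marks are estimates from 3 against 3 arrays and bars are standard errors of the fit. The 20 called genes lie above 0 in all 4 kinds of culture, while 9 of the 12 lower genes lie above 0 in undifferentiated cervical cultures.

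Whether the EAE effect itself differed between cultures was tested with interaction contrasts over 12 arrays each. None of 18648 probe sets passed for differentiated against undifferentiated cervical cultures (0%, limma, 2358 with an unadjusted p below 0.05, smallest adjusted p 0.345). None of 18403 passed against thoracic (0%, 263 below 0.05, smallest adjusted p 0.989) and none of 18011 against caudal differentiated cultures (0%, 178 below 0.05, smallest adjusted p 1). With the replicate number as a block, 4 were called in the contrast with caudal cultures, 3 higher and 1 lower, and none in the other contrasts. The intervals stayed wide. For Ctss the effect in differentiated cervical cultures exceeded that in undifferentiated ones by 1.13 log2 units, with a 95% interval from -0.27 to 2.54, and that in caudal cultures by 1.44, with an interval from -0.81 to 3.68. For C1qa the difference from undifferentiated cultures was -0.26, with an interval from -1.68 to 1.15. These genes were picked on their effect in differentiated cervical cultures, so their interaction values are not independent of that choice.

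The 3 named genes with the smallest p for a lower EAE effect in differentiated than in undifferentiated cultures were all among the 12 lower genes. Fgfr3, Atp1b2 and Ceacam4 had interaction values of -1.56, -1.99 and -3.08 log2 units, with 95% intervals from -2.05 to -1.07, -2.75 to -1.24 and -4.33 to -1.82, and an adjusted p of 0.345 each. The 12 were chosen on their lower values in differentiated cervical cultures, so the sign of their interaction values is no separate result. For Tnr, Slc6a15 and Cdkn1c, as for Bmp4, naive replicate 3 of the undifferentiated cultures stood apart, with a Tnr signal of 170 where the other naive arrays had 3157 and 2452. For the 20 called genes the values lay between -0.65 and 1.89 with a median of 0.67, and the interval left 0 on one side for 4. Against caudal cultures all 20 values were positive, between 0.72 and 1.52, with a median of 1.06. Against thoracic cultures 9 were positive and 11 negative, with a median of -0.04. The largest of the thoracic differences downward was that of Lyz2, at -1.61 with an interval from -3.06 to -0.16 (adjusted p = 0.989).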

How the data were processed

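Total RNA was labelled with biotin and measured on 1 Affymetrix gene-level array per sample. Each deposited intensity is a linear signal of 1 probe set, made per the file headers by PLIER with GC-based background correction and scaled to a global median. The submitters' processing notes name Affymetrix Expression Console and no version of it. No source used here gives the array type or a genome build. The authors' deposited table also holds a p-value and a ratio per comparison. Its p-values were matched by an equal-variance test recomputed on the linear signals, and after Benjamini-Hochberg adjustment here the smallest was 0.157.

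The platform annotation paired 19852 of the 27342 main probe sets with 1 gene symbol, and these alone were named. It listed several symbols for 1407 and no symbol for 6083. Symbols were updated by gene identifier from RefSeq GRCr8, which held 18580 of them. Where a gene had several probe sets, the one with the highest mean signal was used.

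Signals were analysed as log2(signal + 16) with limma 3.58.1 in R 4.3.3 (lmFit and eBayes, two-sided). Testing was limited to probe sets brighter than 50 on 3 or more of the arrays fitted. P-values were adjusted by Benjamini-Hochberg over all of these, and calls needed an adjusted p no higher than 0.05 with a fold no lower than 1.2. These limits of 50, 0.05 and 1.2 are those of the design text. Interactions were contrasts over 12 arrays. The fit was tested on simulated data. The members and the 38 gene lists were chosen with earlier results of these data known. Named genes were, per direction, the 12 called with the largest difference and separate groups. Where fewer than 3 were called, they were the 12 with the smallest p and separate groups. To these came up to 4 genes per list, 3 per interaction and direction, and a set of markers. The other called genes, and some list members, were added after their values were seen. Alternatives were another pseudocount, other signal limits, quantile and 75th percentile scaling, a replicate block, array weights, all 18 groups in 1 fit, the methods' t-test and leaving out each array. The highest correlation between any pair of the 6 arrays was 0.9937, and none were identical. Whether replicate numbers paired the EAE with the naive arrays could not be settled, and the main fit treated the arrays as unpaired. The EAE arrays of cervical and caudal differentiated cultures correlated by number, and the naive ones did not in all cases (0.458, -0.073 and 0.518). Results for a few genes are not reported here.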

Additional observations from a re-analysis of the deposited data

How the results depend on the processing

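The count of 23 probe sets was 33 with log2(signal + 1), 16 without a signal limit, 24 with a limit of 100, 17 after quantile normalization and 25 after 75th percentile scaling. It was 154 with array weights (115 higher, 39 lower), 58 with all 18 groups in 1 fit (55 higher, 3 lower), and 0 with the methods' t-test, with 1018 unadjusted p-values below 0.05 on log2(signal + 16) and 1004 on linear signals. Leaving out 1 array gave 0 to 50 calls, or 0 to 58 with the probe sets of the full fit, a setting added after seeing the data. Without an EAE array, only 2 of the 20 called genes pass the signal limit on 3 arrays by construction, which gave 3, 0 and 0 calls. All 20 called genes tested in a setting kept a positive difference. With replicate as a block 24 probe sets were called. Same-numbered EAE and naive arrays correlated at 0.31, 0.494 and -0.34 in their deviations, against at most -0.211, 0.507 and 0.303 for other numbers. These few values cannot settle whether the numbers paired the arrays. Of the 20 genes, 18 were called in both fits. The interactions had 0 calls in all settings except 5 against undifferentiated cervical with all 18 groups, 4 against caudal with the replicate block, and 0 to 1 on leaving out an array. Differences near 0 changed sign. Quantile normalization gave 0.0608 for Tubb3, 0.0142 for Nes, 0.0066 for Col1a1 and 0.0147 for Col3a1, and 75th percentile scaling gave 0.0098 for Pdgfra, 0.0605 for Tubb3, 0.0756 for Nes, 0.0609 for Mki67, 0.0223 for Col1a1 and 0.053 for Col3a1. Array weights gave -0.28 for Olig2, 0.11 for Pdgfra, -0.0649 for Mbp, 0.0669 for Tubb3, 0.15 for Nes, 0.13 for Mki67, 0.57 for Col1a1, 0.79 for Col3a1, 0.0034 for Gja1, 0.67 for Mx2 and 0.29 for Isg15, and linear signals gave -0.0582 for Olig2 and 0.0311 for Nes. Leaving out 1 array gave -0.33 to 0.18 for Olig2, -0.49 to 0.42 for Pdgfra, -0.0805 to 0.11 for Mbp, -0.14 to 0.13 for Tubb3, -0.39 to 0.28 for Nes, -0.25 to 0.27 for Mki67, -0.75 to 1.10 for Col1a1, -0.83 to 1.31 for Col3a1, -1.72 to 0.17 for Gja1, -0.90 to 0.78 for Mx2 and -0.76 to 0.40 for Isg15. The causes were not tested.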

Other observations

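Vgf, Il1rl1 and Vwc2 were the 3 named genes with the smallest p for a higher EAE effect in differentiated cervical than in caudal cultures. Il1rl1 encodes the receptor for interleukin-33. Its signal was 1123, 55.8 and 466 on the EAE arrays and 24.8, 8.91 and 29.1 on the naive arrays. Every EAE array lay above every naive array, and EAE replicate 2 was far below the other EAE arrays. The log2 difference was 3.25 ± 0.91 (limma, adjusted p = 0.847), which did not pass, and the interaction value of 5.08 had a 95% interval from 2.31 to 7.85 (adjusted p = 1). Il1rn, the interleukin-1 receptor antagonist, had 1013, 53.8 and 605 against 435, 21.9 and 72.1, with the same order of arrays in the EAE group, and its groups overlapped. Vgf, a secreted neuropeptide precursor, had 419, 289 and 396 against 178, 177 and 235, a log2 difference of 0.85 ± 0.18 (adjusted p = 0.343).

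Fcrl2, an Fc receptor-like gene, had the largest difference of the microglia and macrophage list, with 266, 1062 and 1620 in EAE and 13.7, 52.7 and 28.3 in naive cultures. Its log2 difference of 4.14 ± 0.63 did not pass (adjusted p = 0.105), and EAE replicate 1 was the lowest of its group by a wide margin. Interferon-induced Mx2 had 179, 206 and 253 in EAE and 1281, 111 and 121 in naive cultures, and Isg15 had 50.8, 51.8 and 53.3 against 232, 37.7 and 33.6. For both, naive replicate 1 was the highest of the 6 arrays and the other naive arrays were the lowest.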
